A study of Homo sapiens with 8 samples.

Results

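The genes described here are the 4 ID genes (ID1, ID2, ID3 and ID4), the inhibitory SMAD genes SMAD6 and SMAD7, the ligand genes BMP2 and BMP4, and the receptor genes BMPR1A and BMPR2. They were chosen by name, as 10 of the 34788 genes for which reads could be summed, with earlier results of these data known. All libraries came from A673/TR/shFEZF1 cells. The parent line, A673, was established from an Ewing sarcoma and holds the fusion oncogene EWSR1-FLI1. These cells also carry the tetracycline repressor, introduced by lentivirus and selected as 1 clone, and a vector from which doxycycline switches on a small hairpin RNA against FEZF1, a zinc finger transcription factor gene. The control group was 4 cultures without doxycycline and the doxycycline group was 4 cultures given 1 µg/mL for 72 h, with 1 culture per group for each of 4 origins: the polyclonal population, clone 3, clone 5 and clone 6. All 8 cultures therefore hold the repressor and the hairpin vector and grew with blasticidine, puromycin and zeocin. The clones had been picked for strong loss of FEZF1 protein with doxycycline. No culture had doxycycline without the hairpin, so the agent and the hairpin cannot be told apart here.

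Bone morphogenetic proteins (BMPs) are secreted ligands that bring together type I receptors such as BMPR1A and type II receptors such as BMPR2. The activated type I receptor phosphorylates SMAD1, SMAD5 and SMAD9, which enter the nucleus with SMAD4 and switch on target genes. The ID genes are among the best known of these targets. ID proteins have a helix-loop-helix but no DNA-binding region, so they hold E proteins such as TCF3, TCF4 and TCF12 away from DNA and are linked to proliferation and to a block of differentiation. SMAD6 and SMAD7 are also induced by the pathway and inhibit it, which closes a feedback loop. In Ewing sarcoma, ID2 is known as a gene with raised expression under EWSR1-FLI1.

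None of the 8 genes with enough reads to be tested changed with doxycycline by the test used. Among the 4 origins, 4 of them (ID2, ID3, ID4 and SMAD6) were called different, beside 39.4% of all genes tested. On simulated data false calls exceeded the nominal rate, more so in this comparison than with doxycycline. The rate in these data may differ, since the simulated setting was simpler. BMP2 and BMP4 were almost without reads. Among 55 other tested genes of the BMP and TGF-beta pathways, BMP7, GDF6, DLX5, TCF4 and TGFBR2 fell and HJV, BAMBI, SMURF1, MSX1, TGFBR3 and CCN2 rose, 11 calls beside 7.62% of all genes tested. The list of these genes was chosen with earlier results of these data known, so its share is no fair comparison with all genes. None of the 11 was called without clone 5 or without origin in the model.

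Between 26719886 and 42422421 reads per library were assigned to transcripts, and 89.9% to 91.1% of them fell in named genes. Read counts scaled to library size (CPM), summed over 6 Ewing sarcoma markers, ranged from 1333 to 2768 in control and from 1310 to 3043 in doxycycline libraries, and all 6 were tested. Most of that sum was CD99, and a smaller marker, NR0B1, was at 54.4 to 71.5 CPM in control and at 94.3 to 103 CPM with doxycycline, without overlap. The sum of 4 fibroblast markers ranged from 340 to 1636 and from 410 to 1451, mostly from COL1A1 and PDGFRB, while the muscle genes MYOD1 and MYOG, the endothelial gene CDH5 and the T cell gene CD3E had 0 reads in every library. Marker sums of the other lists stayed under 11 CPM. The blood sum was nearly all HBB, at 4.95 to 10.5 CPM in control and 5.26 to 10.3 CPM with doxycycline. The epithelial marker EPCAM reached 1.74 CPM in control and 2.92 CPM with doxycycline. The table of the clone 5 control culture had been written with its rows in another order and its numbers in another format than the other 7. That library was lowest for ID1, ID2, ID3, ID4, SMAD7 and BMPR1A, so values without clone 5 are given below. FEZF1, the target of the hairpin, was at 96.4, 70.5, 107 and 74.4 CPM in the control cultures of the polyclonal population, clone 3, clone 5 and clone 6, and at 60.6, 43.0, 60.8 and 36.4 CPM with doxycycline. The groups did not overlap (exact 2-sided permutation test, 4 against 4 libraries, p = 0.0286, the smallest that free exchange of the libraries can give), and exchange within the 4 pairs alone gave the smallest p it allows, 0.125 (exact permutation test, 2-sided). In the model over all genes, the log2 fold change was -0.81 ± 0.073 (SE; edgeR's quasi-likelihood test with origin as a block, adjusted p = 0.00595). Without the block edgeR's adjusted p was 0.29. Fitted by transcript with the block, the curated FEZF1 transcript NM_001024613.4 had a log2 fold change of -1.18. The predicted transcript XM_011516202.2, with 31.2% to 50.9% of the FEZF1 reads, had -0.27.

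The levels of the 10 genes were first set side by side in TPM, the share of all transcripts that a gene accounts for once read counts are divided by transcript length. ID2 had the highest level, 270 ± 38.9 TPM (mean ± SD over 8 libraries), followed by ID3 at 126 ± 24.7 TPM. Every library was higher for ID2 than any library was for ID3, and the same held between ID3 and the next gene. SMAD6 (32.1 ± 8.29 TPM), ID1 (32.0 ± 5.88 TPM) and BMPR1A (25.6 ± 4.60 TPM) overlapped one another, so their ranks are not separated by the spread. ID4 (12.5 ± 2.62 TPM) and BMPR2 (11.1 ± 1.46 TPM) overlapped in the same way, and SMAD7 lay below them at 4.18 ± 1.02 TPM. The level of BMPR1A rests on 1 matched transcript that holds 73.4% of the reads implied by the authors' mean for that gene. The level of SMAD6 depends on transcripts other than the curated protein-coding transcript, which alone gave 4.03 ± 1.87 TPM. The predicted transcripts XM_011521561.2 and XR_931827.2 held 63.6% to 82.1% and 11.6% to 15.3% of its reads.

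**Figure D1:**
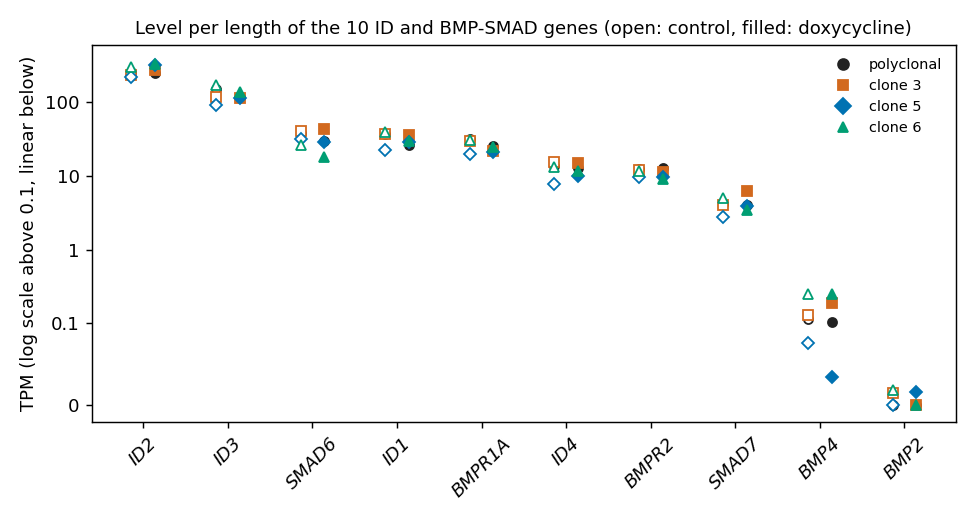
Level per length (TPM, log scale above 0.1 and linear below) of the 10 genes in 8 libraries, with open symbols for control, filled symbols for doxycycline and shapes for the origin of the culture. ID2 (mean 270 TPM) and ID3 (126 TPM) lie above all the others, and BMP4 (0.144 TPM) and BMP2 (0.00618 TPM) lie near 0.

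BMP2 and BMP4, ligands that activate the receptors described here, were barely detected. BMP2 had 0 or 1 read per library and 0 in 5 libraries, where a count of 0 allows up to 0.0786 to 0.123 CPM (3 reads per library, counting error only). BMP4 had between 1 and 6 reads per library, 32 in all. Both were left out of the test for low counts, and no difference was detectable at this depth. The ligand genes with reads were others. GDF6 was at 98.3 ± 15.6 TPM and BMP7 at 44.4 ± 10.1 TPM (mean ± SD, 8 libraries), and the next, BMP6, was at 2.63 ± 0.91 TPM.

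The ID genes were compared between doxycycline and control by CPM. ID1 was at 17.9, 19.0, 12.1 and 20.5 CPM in the control cultures of the polyclonal population, clone 3, clone 5 and clone 6, and at 12.9, 17.8, 15.1 and 16.3 CPM with doxycycline. It was lower with doxycycline in 3 pairs and higher in clone 5, and the groups overlapped. ID3 had the same arrangement, with 67.4, 57.3, 45.9 and 85.4 CPM in control and 53.9, 52.6, 55.0 and 72.1 CPM with doxycycline. Clone 5 again moved the other way, from the lowest of the 4 controls to a value within the range of the other doxycycline cultures. ID4 was at 29.4, 35.5, 18.1 and 31.7 CPM in control and at 28.0, 33.1, 23.0 and 28.4 CPM with doxycycline. It too was lower in 3 pairs and higher in clone 5, and both clone 5 libraries lay below the other 6.

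ID2 was at 165, 165, 157 and 214 CPM in control and at 166, 183, 222 and 248 CPM with doxycycline. It was higher in 4 of 4 pairs, though the polyclonal pair was near equal (165.2 and 165.6 CPM), and the groups overlapped. It was the only 1 of the 8 tested genes that moved in 1 direction in every pair, and 33.3% of all genes tested did so (17.3% higher and 15.9% lower in every pair).

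SMAD6, which inhibits BMP signalling in particular, was at 93.5, 108, 84.8 and 70.2 CPM in control and at 73.8, 116, 79.6 and 49.1 CPM with doxycycline. It was lower in 3 pairs and higher in clone 3. SMAD7, which inhibits both the BMP and the TGF-beta arm, was at 5.95, 6.71, 4.21 and 7.60 CPM in control and at 5.86, 9.30, 5.81 and 5.68 CPM with doxycycline. It was higher in clones 3 and 5 and lower in the polyclonal population and clone 6, and the groups overlapped for both genes.

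BMPR1A, the type I receptor gene, was at 114, 114, 78.1 and 124 CPM in control and at 92.1, 81.2, 82.2 and 103 CPM with doxycycline. It was lower in 3 pairs and slightly higher in clone 5. BMPR2, the type II receptor gene, was at 86.6, 86.9, 71.8 and 89.6 CPM in control and at 88.3, 80.4, 70.5 and 71.7 CPM with doxycycline. It was lower in 3 pairs, with the polyclonal pair the exception, and the groups overlapped for both receptors.

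**Figure D2:**
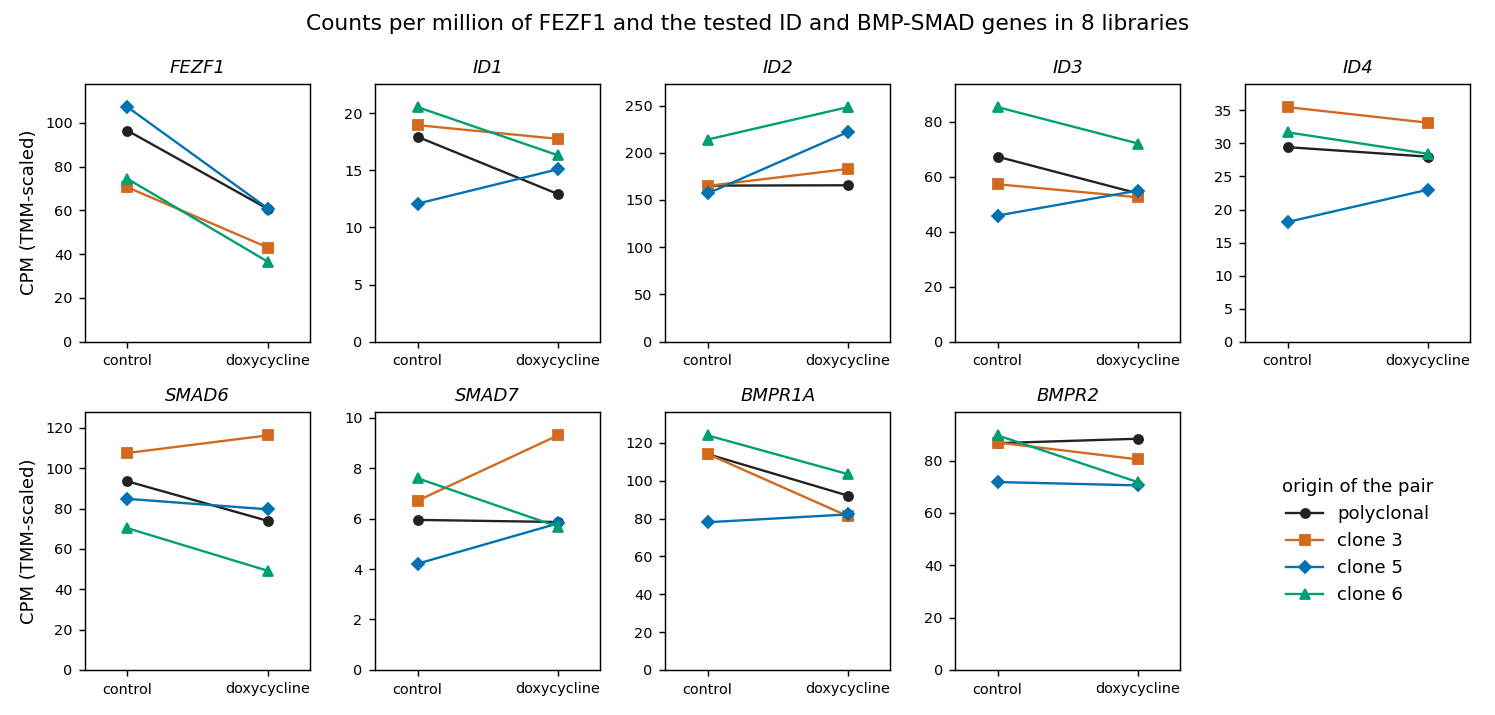
CPM (linear axis from 0) of FEZF1 and the 8 tested genes in control and doxycycline cultures, with a line for each pair of 1 origin. FEZF1 fell in 4 of 4 pairs, whereas ID1, ID3, ID4 and BMPR1A were lower in 3 pairs and higher in clone 5.

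In the fit over 15991 genes with origin as a block, 0 of the 8 tested genes passed an adjusted p of 0.05 (quasi-likelihood test of edgeR, adjusted by Benjamini-Hochberg), beside 7.62% of all genes tested. DESeq2 with the block also called 0 of 8, beside 14.9% of the genes to which it gave an adjusted p. Without the block edgeR called 0 of 8, beside 0.00625% (1 gene) of all genes tested. At an unadjusted p under 0.05 there were 2 of 8 in edgeR, ID2 and BMPR1A, beside 24.8% of all genes tested, so the share was that of the background. ID2 had a log2 fold change of 0.22 with a 95% interval of 0.031 to 0.40 (adjusted p = 0.146 in edgeR and 0.0934 in DESeq2). BMPR1A had a log2 fold change of -0.25 with an interval of -0.45 to -0.043 (adjusted p = 0.134 in edgeR and 0.053 in DESeq2). These are unadjusted intervals, and for both genes a change as large as that of FEZF1 lies outside them.

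The other 6 intervals included 0. The log2 fold change was -0.15 for ID1 (interval -0.46 to 0.16), -0.11 for ID3 (-0.33 to 0.11), and 0.00011 for ID4 (-0.21 to 0.21). It was -0.20 for SMAD6 (-0.44 to 0.028), 0.13 for SMAD7 (-0.29 to 0.54) and -0.11 for BMPR2 (-0.27 to 0.056). SMAD7 had the widest interval and, at 116 to 320 reads per library, the fewest reads. The sign of ID4 turned in 5 of 8 alternative fits. The median log2 fold change was -0.11 over the 8 genes and 0.0042 over all genes tested, and 0 of the 8 had groups that did not overlap, beside 4.95% of all genes.

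The clone 5 pair moved against the others in 4 of the 8 genes and had the largest rise of ID2. Whether the response differed between origins was not tested, since each origin had 1 pair. Without clone 5 the log2 fold changes were -0.32 for ID1, -0.25 for ID3, -0.13 for ID4 and -0.37 for BMPR1A, with adjusted p between 0.0774 and 0.504, and that of ID2 was 0.11 (adjusted p = 0.524). SMAD7 was then at 0.00058, SMAD6 at -0.26 and BMPR2 at -0.15, and 0 of the 8 were called. The p-values measure the spread between these 4 pairs, whose clones all descend from 1 clone with the repressor, and in bulk RNA fewer cells of a kind and less RNA per cell cannot be told apart.

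**Figure D3:**
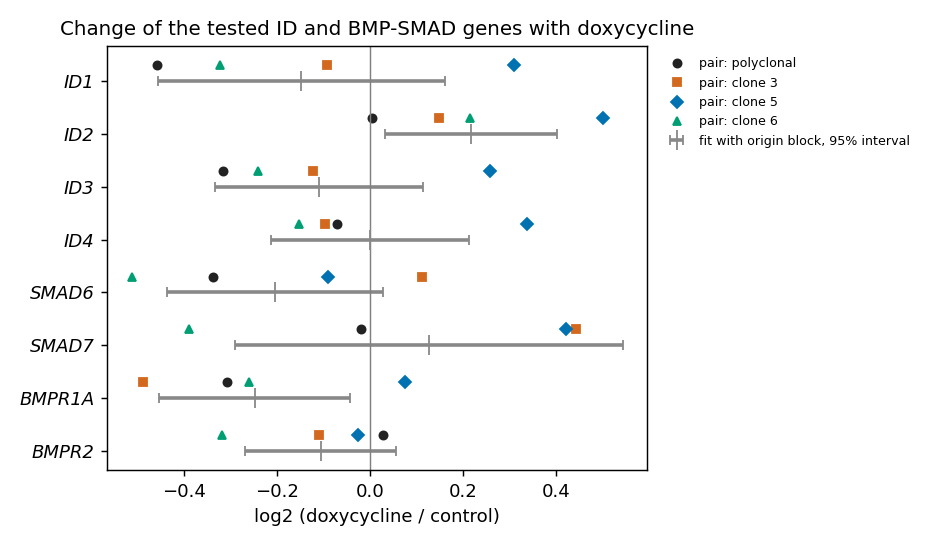
Log2 ratio of doxycycline to control for the 8 tested genes, with the fitted value and its 95% interval in grey and the 4 pairs as coloured symbols (pairs with a pseudocount of 0.5 CPM). Clone 5 lies to the right of 0 for ID1, ID2, ID3, ID4, SMAD7 and BMPR1A, and the intervals of ID2 (0.031 to 0.40) and BMPR1A (-0.45 to -0.043) leave out 0.

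The polyclonal population and the 3 clones were also compared with each other. In the same fit, 4 of the 8 genes, SMAD6, ID4, ID3 and ID2, differed between origins (edgeR's quasi-likelihood test of 3 coefficients), beside 39.4% of all genes tested, so the share was near the background. Each origin had 1 library per group, so this test rests on the spread left after origin and treatment are fitted. On simulated data in which most genes did not differ between origins, its false calls exceeded the nominal rate. SMAD6 was highest in clone 3 and lowest in clone 6, a 1.90-fold range of fitted levels (edgeR adjusted p = 0.011). Both clone 3 libraries were above, and both clone 6 libraries below, all other libraries. ID4 was lowest in clone 5 and highest in clone 3, with a 1.67-fold range (adjusted p = 0.0199). ID3 was highest in clone 6, where both libraries (85.4 and 72.1 CPM) exceeded every other, with a 1.55-fold range down to clone 5 (adjusted p = 0.0285). ID2 was also highest in clone 6, at a mean of 231 CPM against 165 CPM in the polyclonal population (1.39-fold, adjusted p = 0.0382).

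Clone 6 thus had the highest mean CPM of ID2 and ID3 and the lowest of SMAD6. ID1 (adjusted p = 0.205), SMAD7 (0.19), BMPR1A (0.0624) and BMPR2 (0.132) did not pass the edgeR test between origins, and DESeq2's likelihood ratio test called BMPR1A as well (0.0104), 5 of 8 beside 45.5% of all genes with an adjusted p. Without clone 6, ID2 and ID3 were no longer called (edgeR adjusted p = 0.513 and 0.373). Without clone 5, ID4 was no longer called (0.172). SMAD6 was called in all 7 alternative fits of this comparison.

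Across the 8 libraries, log2 CPM of ID1 went with that of ID4 (Pearson r = 0.81), SMAD7 (0.74), BMPR1A (0.73) and ID3 (0.71), and ID3 with BMPR1A (0.84). SMAD6 ran the other way from ID2 (-0.69) and ID3 (-0.49), but not from ID1 (0.18) and ID4 (0.23). These values describe 8 libraries that share 4 origins. Among the 6 genes whose pattern was most like that of ID3, of 9442 ranked with a mean of at least 10 CPM, were NEK1 (r = 0.97), FAM200A (0.95), SMAD1 (0.95), NEDD1 (0.95) and DCK (0.94). SMAD1, which encodes a BMP-responsive SMAD, was at 18.2 ± 1.48 TPM. With the other tested genes of the 10, its r ranged from -0.38 for SMAD6 to 0.84 for BMPR1A, and was 0.45 for ID2. The genes most like ID1 were CEP128 (0.92), NBPF1 (0.91), SENP1 (0.91), ZNF644 (0.91), SETD2 (0.91) and TAF1 (0.90).

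The reads of SMAD6 are divided among 4 RefSeq transcripts, and 1 of them was lower with doxycycline in every pair. NM_005585.5, the curated protein-coding transcript of 3828 bases, was at 12.0, 11.4, 8.19 and 13.5 CPM in control and at 7.18, 3.46, 4.52 and 5.28 CPM with doxycycline (CPM of all assigned reads). Each doxycycline library was lower than each control library. How many of all transcripts did the same was not counted. The predicted transcript XM_011521561.2, of 5783 bases, held 63.6% to 82.1% of the reads of the gene and was at 62.1, 68.4, 56.5 and 39.6 CPM in control and at 50.3, 86.2, 56.6 and 27.8 CPM with doxycycline. It was lower in 2 pairs and higher in 2.

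This result was looked at after the values had been seen, and it depends on the tool. NM_005585.5 had a log2 fold change of -1.18 ± 0.242 (SE) over 37912 transcripts tested, with an unadjusted p of 0.00621 and an adjusted p of 0.382 in edgeR with the block, which called 0% of transcripts (3169 had an unadjusted p under 0.05). In DESeq2 with the block the adjusted p was 0.000212, where 7.43% of transcripts were called. Leaving out 1 origin at a time gave log2 fold changes between -1.34 and -0.99. Of 15 tested transcripts of the 10 genes, it was the only 1 called by DESeq2, a share near the background. Salmon shares the reads of overlapping transcripts by a model, so the split between NM_005585.5 and the predicted transcript carries an error that the counts do not show.

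**Figure D4:**
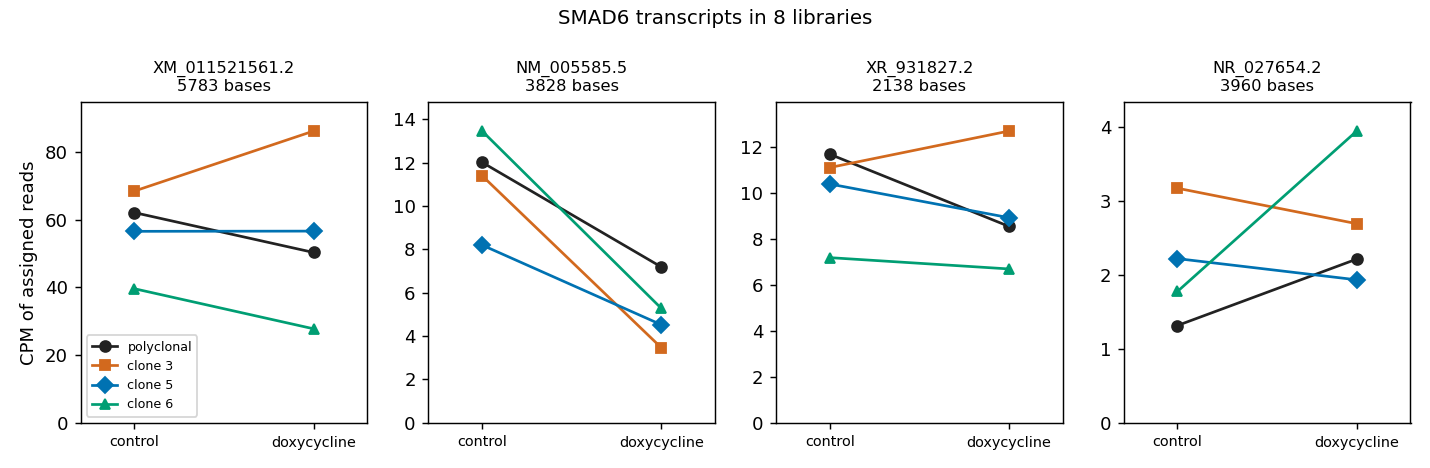
CPM of assigned reads (linear axis from 0) of the 4 SMAD6 transcripts in control and doxycycline cultures, with a line for each origin and a separate scale in each panel. NM_005585.5 is lower with doxycycline in 4 of 4 pairs, and XM_011521561.2, which holds most of the reads, is lower in 2 of 4.

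The deposited length of NM_005585.5 equals the summed exons of a protein-coding SMAD6 transcript in GENCODE release 44, which has 4 exons on the plus strand of chromosome 15 of GRCh38 (chr15:66702236-66782849, first exon to 66704075). The sequence before this start is shown because NM_005585.5, the transcript that DESeq2 called and edgeR did not, begins there. It is from RefSeq (GRCh38.p14, chr15:66701986-66702235, plus strand), runs 5′ to 3′ and ends at the base before the start. Capitals mark GTCTAGAC, the palindrome bound by SMAD3 and SMAD4, which begins 12 bases before the start. The second sequence is the same stretch for BAMBI (chr10:28677271-28677520, plus strand), an inhibitor gene that rose with doxycycline as described next, with GGCGCC, a GC-rich SMAD element, in capitals at 209, 196 and 181 bases before the start.
SMAD6: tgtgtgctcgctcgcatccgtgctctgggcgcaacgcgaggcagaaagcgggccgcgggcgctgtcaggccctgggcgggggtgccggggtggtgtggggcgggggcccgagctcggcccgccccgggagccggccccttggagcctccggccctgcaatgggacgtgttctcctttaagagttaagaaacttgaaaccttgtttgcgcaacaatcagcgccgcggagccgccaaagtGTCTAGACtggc
BAMBI: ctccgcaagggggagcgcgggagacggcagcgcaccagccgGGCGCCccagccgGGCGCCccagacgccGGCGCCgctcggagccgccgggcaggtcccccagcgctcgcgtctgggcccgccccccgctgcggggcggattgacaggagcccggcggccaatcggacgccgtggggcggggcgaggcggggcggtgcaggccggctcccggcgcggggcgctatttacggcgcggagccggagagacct

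RefSeq windows of 300 bases (250 before and 50 after the start) were on hand for 9 of the 10 genes, and both strands were searched. GTCTAGAC lay in the SMAD6 window alone among the 9 genes and in 0.202% of 35116 windows. GGCGCC lay in the windows of BMPR2 and BMP4 and in 19.2% of all windows. Among the called pathway genes with a window, described below, only BAMBI held GGCGCC. It also lay in windows of pathway genes that were not called, such as SMAD1, SMAD3 and SMAD4. GGAAGGAA, a repeat of the core bound by EWSR1-FLI1 (TTCCTTCC on the other strand), lay in 1 window of BMP4 and in 3.67% of all. Among pathway genes it lay in 1 window each of TCF4, which was called, and TGFBR1, which was not. The palindromes GTCTAGAC and GGCGCC read the same on both strands, and the 3 motifs do not overlap in the sequences printed. The matches describe letters and no binding was measured.

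The rest of the pathway was described with a list chosen with earlier results of these data known. Its shares are therefore no fair comparison with all genes. The list held 67 genes in 8 roles. Of these, 55 were tested, 6 rose and 5 fell (11 called by edgeR with the block), beside 7.62% of all genes tested (3.72% higher and 3.9% lower). All 11 moved in 1 direction in 4 of 4 pairs, beside 33.3% of all genes tested. The test that selected them used the same pairs, so this adds no support. The calls were fragile. DESeq2 with the block (14.9% of genes called) called 10 of the 11 and gave no adjusted p for the other, HJV. Without the block, and also without clone 5, 0 of the 11 were called, and 3, 1 and 1 were called without the polyclonal population, clone 3 and clone 6. None of the 11 changed sign in any of these fits, which reuse the same libraries.

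Of 6 tested ligand genes, 2 fell and none rose. BMP7 was at 120, 129, 94.3 and 134 CPM in control and at 98.3, 91.5, 60.0 and 116 CPM with doxycycline, a log2 fold change of -0.41 ± 0.079 (SE, adjusted p = 0.0255). GDF6 was at 239, 233, 210 and 267 CPM in control and at 207, 205, 162 and 191 CPM with doxycycline, a log2 fold change of -0.31 ± 0.064 (adjusted p = 0.0303). The groups overlapped for BMP7 and were separate for GDF6. These were the most abundant ligand genes by TPM. BMP6 had a log2 fold change of -0.50 and was lower in 4 of 4 pairs, but did not pass (adjusted p = 0.0765).

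Of 9 receptor or coreceptor genes, 1 rose and none fell. It was HJV, the coreceptor gene known from iron regulation, at 0.40, 0.28, 0.58 and 0.36 CPM in control and at 1.35, 0.87, 2.12 and 0.72 CPM with doxycycline (log2 fold change 1.58 ± 0.264, adjusted p = 0.018). The groups were separate, at very low counts. None of the 4 signal-transducing SMADs (SMAD1, SMAD5, SMAD9 and SMAD4) was called, with log2 fold changes between -0.10 and 0.0065. None of 10 tested extracellular antagonists was called, and NOG, FST, SOST and BMPER were among those with too few reads to be tested.

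Of 5 intracellular or membrane regulators, 2 rose. BAMBI, a receptor-like protein without a kinase that blocks signalling, was at 26.8, 28.4, 24.4 and 26.5 CPM in control and at 34.1, 41.9, 43.1 and 35.0 CPM with doxycycline. Every doxycycline library was higher than every control library, the log2 fold change was 0.53 ± 0.091 (adjusted p = 0.0192), and clone 5 moved most and in the same direction as the others. SMURF1, a ubiquitin ligase that targets BMP-responsive SMADs, was between 39.0 and 49.1 CPM in control and between 46.6 and 62.5 CPM with doxycycline (log2 fold change 0.31 ± 0.069, adjusted p = 0.0397). Groups did not overlap for 3 of the 55 genes, GDF6, HJV and BAMBI, beside 4.95% of all genes.

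Of 6 tested BMP-responsive transcription factor genes, the homeobox genes MSX1 and DLX5 moved in opposite directions. MSX1 rose from between 14.3 and 25.0 CPM to between 24.5 and 28.4 CPM (log2 fold change 0.53 ± 0.113, adjusted p = 0.0339). DLX5 fell from between 50.3 and 75.9 CPM to between 41.8 and 58.1 CPM (-0.30 ± 0.059, adjusted p = 0.0262). ATOH8, with 66.35% of the reads implied by the authors' mean matched, was not called with doxycycline (-0.14, edgeR adjusted p = 0.412). Across 8 libraries that share 4 origins, its log2 CPM went with that of ID4 (Pearson r = 0.92), and both were lowest in clone 5. With the other tested genes of the 10, r ranged from 0.051 for SMAD6 to 0.80 for ID1.

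The E proteins are the partners that ID proteins bind. TCF12 was at 263 ± 20.9 TPM and TCF3 at 102 ± 12.2 TPM, beside 270 ± 38.9 TPM for ID2 (mean ± SD, 8 libraries), although 66.5% of the reads implied by the authors' mean were matched for TCF3. TCF4 fell, from between 25.5 and 56.3 CPM to between 21.5 and 42.5 CPM (log2 fold change -0.37 ± 0.066, adjusted p = 0.0221), with 34.05% of the reads implied by the authors' mean matched, so this describes part of its transcripts. TCF3 (0.039) and TCF12 (-0.11) were not called.

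In the TGF-beta arm, 2 of 12 genes rose and 1 fell. TGFBR3, the coreceptor betaglycan, had a log2 fold change of 0.38 ± 0.082 (adjusted p = 0.0371) and CCN2, a matricellular protein gene induced by TGF-beta, one of 0.45 ± 0.088 (adjusted p = 0.0265). CCN2 ranged from 6.63 to 37.5 CPM among the control cultures alone, lowest in clone 6 and highest in clone 3. TGFBR2, the type II receptor gene, had a log2 fold change of -0.28 ± 0.063 (adjusted p = 0.0403), with 58.85% of the reads implied by the authors' mean matched. TGFB1, the most abundant ligand gene of this arm by TPM (83.5 ± 14.1), was lower in 4 of 4 pairs and did not pass in edgeR (-0.25, adjusted p = 0.0747), but was called by DESeq2 with the block (adjusted p = 0.0164). PMEPA1, a TGF-beta target, was not called (-0.26, adjusted p = 0.153).

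**Figure D5:**
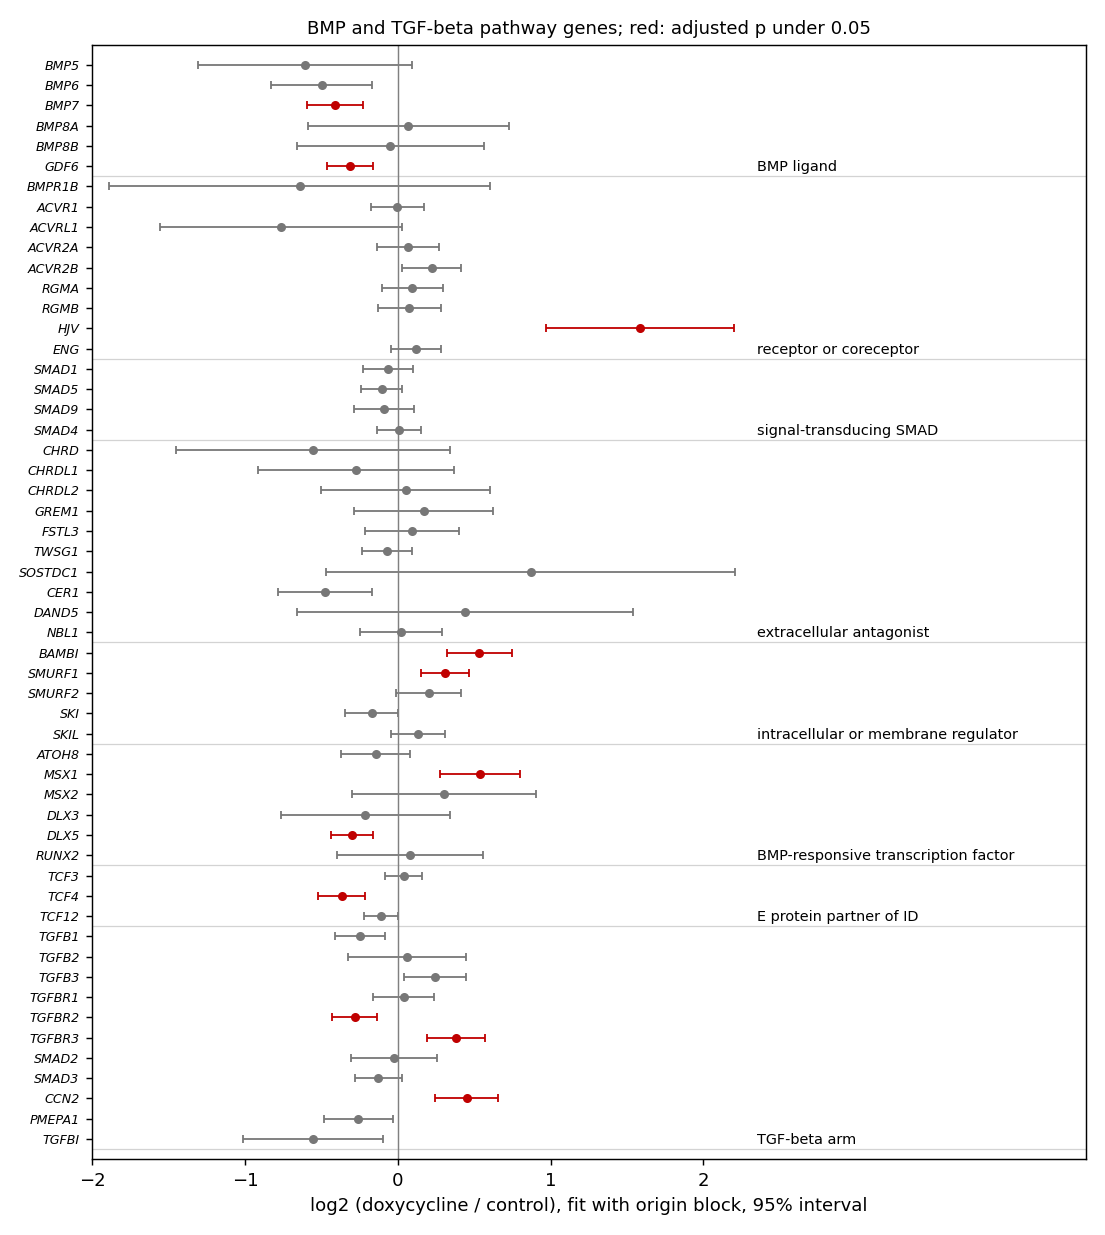
Log2 fold change with doxycycline and its 95% interval for the tested pathway genes (all but 1 of the 55) by role, in red where the adjusted p was under 0.05. HJV (1.58), BAMBI (0.53), MSX1 (0.53), CCN2 (0.45), TGFBR3 (0.38) and SMURF1 (0.31) lie to the right, and BMP7 (-0.41), TCF4 (-0.37), GDF6 (-0.31), DLX5 (-0.30) and TGFBR2 (-0.28) to the left.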

How the data were processed

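RNA of 8 A673/TR/shFEZF1 cultures was sequenced with a stranded mRNA kit. The authors quantified it with Salmon on GRCh38 and deposited estimated counts and TPM of 158867 transcripts per library, and a DESeq2 (2.11.40.6, per the submitters' processing notes) table. Of that table, the deposited mean signal of normalized counts was used only to see how much of a gene had been matched. Its log2 fold changes, standard errors, Wald scores, p-values and adjusted p-values were not used. The strand setting is not given in the sources used here. Transcripts were matched by accession to RefSeq symbols (GRCh38.p14), 115319 of them (72.6%), and their estimated counts were summed and rounded.

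Genes were kept by filterByExpr (minimum count 10), scaled by TMM and tested in edgeR 4.0.16 (quasi-likelihood, R 4.3.3) with Benjamini-Hochberg adjustment at 0.05 and origin as a block. The alternatives were DESeq2 1.42.0, a fit with no replicate block, the size factors of DESeq2, keeping every gene with 1 count or more in any library, and leaving out each origin, and transcript fits were added after seeing the data. The block is a pairing by origin, since both cultures of a clone are the same cells. After subtracting group means, log2 CPM correlated at 0.406 to 0.59 between cultures of the same origin and at -0.395 to 0.179 between different origins. The fits were tested on simulated data, where false calls exceeded the nominal rate, more so between origins than with doxycycline. Each comparison had a single random draw with differences planted in some genes. For the origin test, all other differences between origins were removed first, unlike in these data. The rate of false calls in these data was therefore not measured. Python 3.11.15 and scipy 1.17.1 were used for the permutation test. TPM was used as deposited, for levels only.

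The 10 genes, the pathway list and the markers were chosen with earlier results of these data known. Named genes are the 10, FEZF1, the called pathway genes and the 6 genes most correlated with ID1 and with ID3. A few genes of these lists are not reported here. Other genes named as not called were chosen after their values were seen.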

Additional observations from a re-analysis of the deposited data

Results flagged for a closer look

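In each group of 4 libraries, a library was singled out where its gap to the nearest other divided by the whole range exceeded Dixon's 95% critical value, over 44 groups of FEZF1, the 10 genes and the 11 called pathway genes. Chance flags about 1 in 20 groups, or 2.2 here, and 5 were found. The clone 6 control library had 214 CPM of ID2, against 157 to 165 CPM in the other controls. With doxycycline, clone 6 had 72.1 CPM of ID3, against 52.6 to 55.0 CPM. SMAD7 was at 9.30 CPM in clone 3 with doxycycline, against 5.68 to 5.86 CPM. BMPR2 was at 71.8 CPM in the clone 5 control, against 86.6 to 89.6 CPM. BMP2 was at 0.0332 CPM, a single read, in clone 5 with doxycycline, against 0 in the other doxycycline libraries.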

How the results depend on the processing

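The count of the 8 tested genes called with doxycycline was 0 in all 8 alternatives. The 1219 genes called overall became 1 with no replicate block (1155 at an unadjusted p under 0.05) and 1920 in DESeq2 with the block, and lay between 175 and 699 when 1 origin was left out, a setting that also leaves fewer libraries. The 11 called pathway genes became 0 with no replicate block and 0 to 3 when 1 origin was left out. With DESeq2, 10 of those 11 and TGFB1 were called. FEZF1 had a log2 fold change of -0.80 without the block (adjusted p = 0.29) and between -0.86 and -0.73 when 1 origin was left out. The 4 genes called between origins became 2 without clone 6, with a range of 2 to 5 over the origins left out, and the 6298 called overall became 2964 to 5299 (2964 without clone 6 and 4078 without clone 5). ID4, at 0.00011, turned to -0.0029 with the filter at 1 count in any library, -0.012 in DESeq2 with the block, -0.012 with DESeq2's size factors, -0.027 with no replicate block and -0.13 without clone 5, and lay between -0.13 and 0.050 when 1 origin was left out. Leaving out the block changed no other call among the results given here. The level of SMAD6 moved from 32.1 to 4.03 TPM with curated protein-coding transcripts only. The cause of these changes was not tested. SMAD7, with 116 to 320 reads per library, had the fewest reads of the 8 tested genes. Its pairs also differed, with log2 ratios from -0.39 in clone 6 to 0.44 in clone 3. BMP2 and BMP4, with at most 6 reads per library, were left out of the test for low counts.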
